A study of Mus musculus with 8 samples.

Results

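The nuclear genes for subunits of the 5 oxidative phosphorylation (OXPHOS) complexes were examined in the dorsal and ventral medial entorhinal cortex (MEC) of the mouse. Members were chosen by gene symbol, with earlier results of these data known. They were the families Nduf (complex I), Sdh (complex II), Uqcr (complex III), Cox4 to Cox8 (complex IV) and Atp5 (complex V). Of 38553 genes in the deposited table, 84 carried such a symbol, 78 of these had enough alignments by the authors' criterion, and 77 had a mean of at least 1 FPKM, the number of sequenced fragments scaled to exon length and library size, and were tested. Every tested gene had values in 8 libraries, 4 dorsal and 4 ventral.

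OXPHOS takes place in the inner mitochondrial membrane. Complexes I and II feed electrons from NADH and succinate into ubiquinone, complexes III and IV pass them on to oxygen, and the proton gradient built by complexes I, III and IV drives ATP synthesis by complex V. Complex II is encoded wholly in the nucleus, whereas the other 4 complexes also contain subunits encoded by mitochondrial DNA. In the cortex, most of the ATP so made is spent on ion pumping and synaptic transmission.

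The tissue was dissected from wild-type male C57BL/6JolaHsd mice, 13 in number and 8 weeks old, none of them treated. One sagittal slice of 400 µm through the right MEC was taken per brain, and the RNA of 3 or 4 animals was combined within each of 4 groups of mice, so that a library is a pool and holds all cell types of the dissected tissue. Fewer cells of a type and less RNA per cell cannot be told apart in such libraries. Libraries are called here by their column headers. Columns D1, V1, D2 and V2 were taken as dorsal and D3, V3, D4 and V4 as ventral, because their means equalled those of the first and the second condition of the authors' comparison, taken as dorsal and ventral, for 13395 and 13392 of 13400 genes within 0.1%. Headers of 4 of the 8 libraries name the other region, so the assignment rests on values and not on a label.

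The libraries were those of forebrain grey matter with its myelin and glia. Slc17a7, the vesicular glutamate transporter of cortical projection neurons, lay between 91.1 and 120.0 FPKM, whereas the choroid plexus marker Ttr did not exceed 0.128 and the muscle marker Ckm did not exceed 0.0600. Of the marker lists, that of oligodendrocytes moved most plainly with region: all 10 genes were D>V, and their summed level was 921 to 1222 FPKM in dorsal and 502 to 666 FPKM in ventral libraries. Of the other cell type lists, genes were called in those of glutamatergic neurons (1 D>V of 8 tested), EC layer II (3 D>V and 1 V>D of 5), parvalbumin interneurons (2 D>V and 1 V>D of 8) and leptomeninges (1 V>D of 4). The summed level of the leptomeninges and choroid plexus list was 34.9 to 42.3 FPKM in dorsal and 59.4 to 69.6 FPKM in ventral libraries. Sums higher in all dorsal libraries were those of EC layer II, parvalbumin interneurons and endothelial cells (32.3 to 36.7 and 25.5 to 31.6 FPKM for the last). Sums of the remaining cell type lists overlapped. The part of these differences in cell content in the values given below was not tested.

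In both regions the OXPHOS genes were among the more abundant transcripts. The median member had 39.3 FPKM, at the 88.9th percentile of the 13674 genes tested, whose median was 7.98 FPKM. Of the 77 members, 16 had 100 FPKM or more, 53 lay between 10 and 100 FPKM, and 8 lay under 10 FPKM. Among the tested genes, the median level was highest for complex IV (93.3 FPKM, 13 genes). It was 49.4 FPKM for complex III (8 genes), 48.6 FPKM for complex V (16 genes), 35.0 FPKM for complex I (36 genes) and 34.2 FPKM for complex II (4 genes). This order holds for tested genes only. Of the genes with a fitting symbol, 13 of 18 were tested for complex IV, 16 of 18 for complex V and all for complexes I to III. The untested genes of complex IV had means of at most 0.650 FPKM. Within each complex the levels spread widely. The groups follow gene symbols and are not sets of subunits in fixed proportions. That of complex IV includes alternative isoforms and Cox7a2l. That of complex V includes Atp5s and Atp5sl, the latter named Dmac2 in GENCODE M21.

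**Figure D1:**
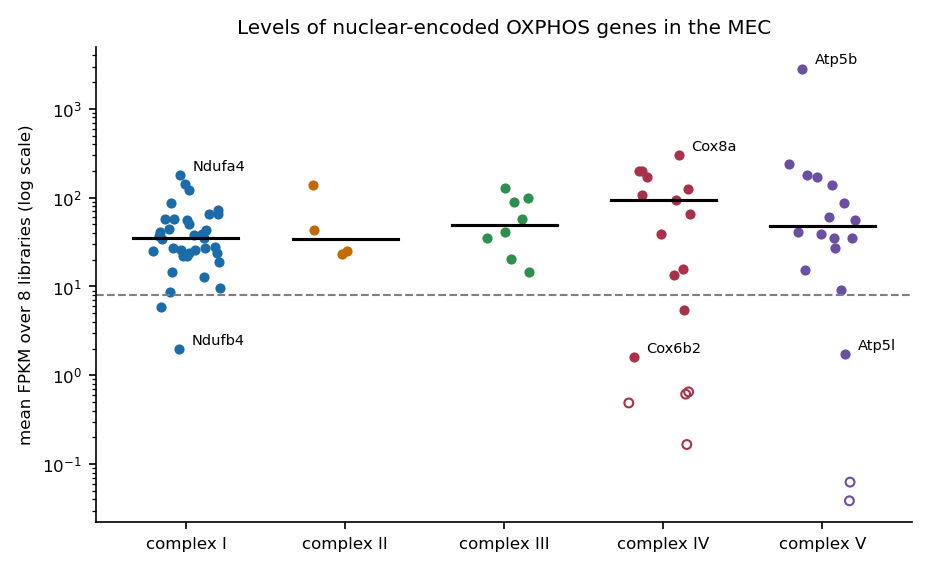
Mean FPKM over the 8 libraries (log axis) of each OXPHOS gene by complex, with filled points for tested genes, open points for genes that were not tested, black bars for the median of the tested genes and a dashed line at the median of all tested genes, 7.98 FPKM. Atp5b stands at 2841 FPKM, whereas Cox8a, the next most abundant member, has 299.8 FPKM. Cox8c, at 0 in all libraries, is not drawn.

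Atp5b, which encodes the catalytic beta subunit of ATP synthase, was by far the most abundant member. Its level was 2486, 2576, 2955 and 3274 FPKM in dorsal libraries D1, V1, D2 and V2, and 2440, 2629, 3296 and 3069 FPKM in ventral libraries D3, V3, D4 and V4. The regions overlapped throughout. Atp5b ranked 7th among all genes tested and made up 37.3% of the summed FPKM of the members and 71.4% of that of complex V. Its level was 15.9 times that of Atp5a1, which encodes the alpha subunit present in equal number in the F1 head. In GENCODE M21 the gene lies at chr10:128083273-128090391 on the plus strand (GRCm38) and contains the small RNA genes Snord59a and Mir677. Whether fragments of these small RNAs entered its FPKM was not tested.

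The study asked how gene expression differs along the dorsoventral axis of the MEC. No OXPHOS gene differed between regions by the threshold used, an adjusted p under 0.05 together with a difference of at least 20% in mean FPKM. By limma with Benjamini-Hochberg adjustment over all genes tested, 0 of 77 members were D>V and 0 were V>D, whereas 3.60% of all genes tested passed, 2.15% as D>V and 1.45% as V>D. The adjusted p alone gave 0 of 77 members as well, and also 3.60% of all genes. At an unadjusted p under 0.05 there were 2 members (2.6%), Ndufb4 and Cox6b2, against 16.0% of all genes. Dorsal and ventral libraries did not overlap for 3 members (3.9%), against 11.1% of all genes. The smallest adjusted p among the members was 0.0572, for Ndufb4. This call depended on the scaling, since Ndufb4 was V>D after quantile normalization (adjusted p = 0.0462, limma). Rescaling to one total FPKM gave an adjusted p of 0.0747 by limma. Over all alternatives its adjusted p ranged from 0.0462 to 0.994. The highest value came from regions as the column headers name them, where 1 of 13674 genes was called.

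The differences were small beside those of all genes, which were not matched for level (median 7.98 FPKM against 39.3 FPKM for the members). The mean FPKM of the regions differed by 20% or more for 4 members, against 19.8% of all genes, and 49 members differed by less than 0.1 on the log2 scale. The median absolute log2 ratio of mean FPKM was 0.058 for the members and 0.114 for all genes. For 29 members (37.7%), against 28.6% of all genes, the 95% interval of the log2 change lay wholly within 20% either way. The intervals of the other members reached a difference of 20% in at least 1 direction. On the log2 scale the median interval extended 0.23 to either side for the members and 0.22 for all genes. Over the 8 libraries the coefficient of variation had a median of 11.4% for the members and 12.3% for all genes. These p-values measure the spread between pools of mice.

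**Figure D2:**
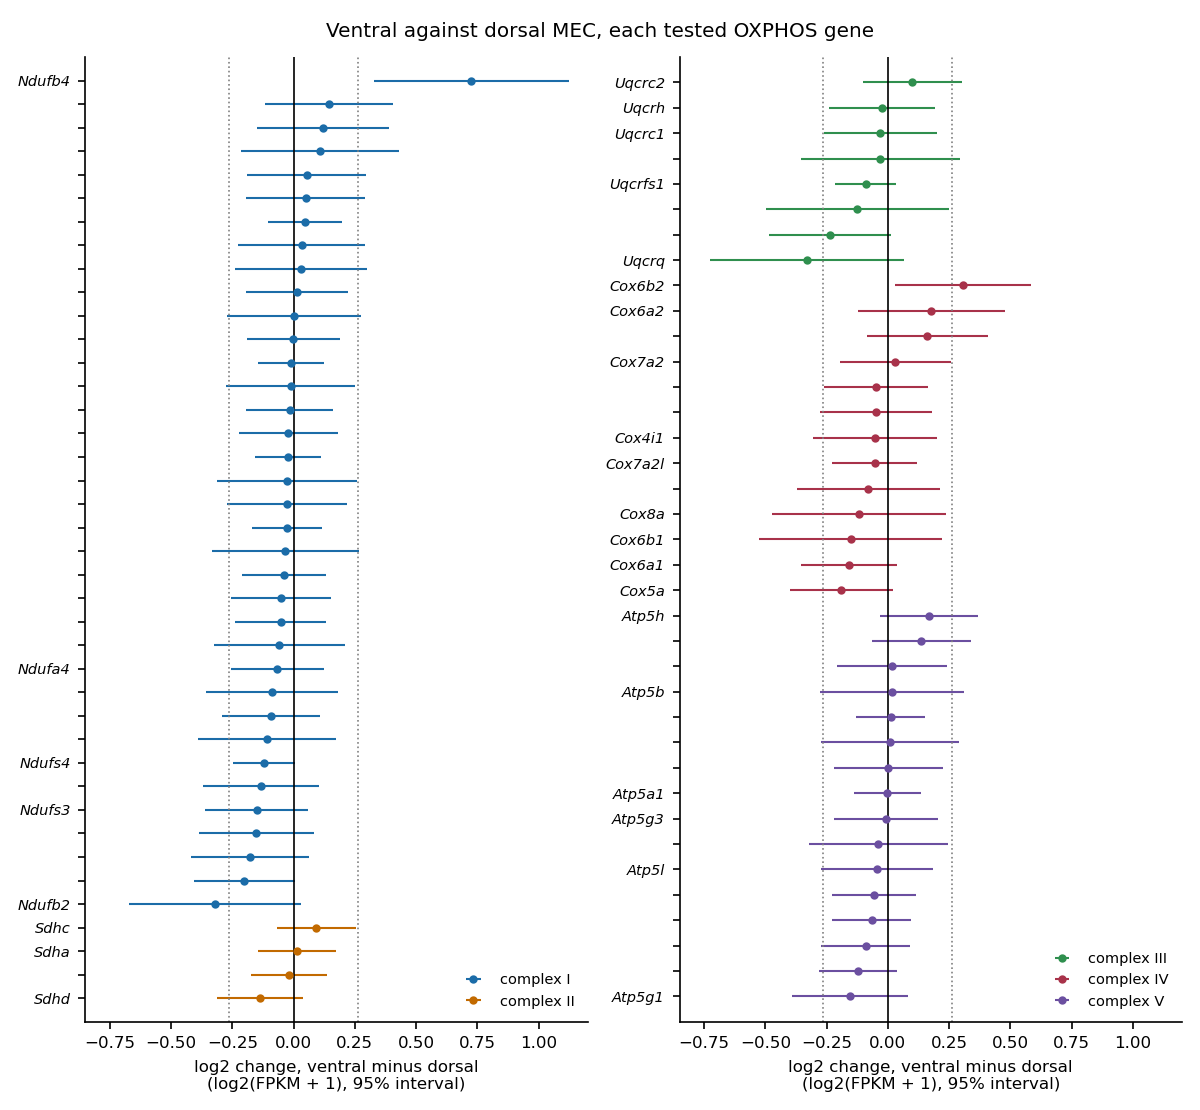
Log2 change from dorsal to ventral MEC on the log2(FPKM + 1) scale (points) with its 95% interval (lines), for each of the 77 tested OXPHOS genes, coloured by complex. Names are printed for genes described in the text, and dotted lines mark a difference of 20%. Only the intervals of Ndufb4 and Cox6b2 leave out 0, and their adjusted p are 0.0572 and 0.262.

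The median log2 ratio of ventral to dorsal mean FPKM was -0.02 for the members and -0.00 for all genes tested. Mean FPKM was lower in ventral MEC for 50 of 77 members, against 51.2% of all genes. That count rested on scaling and on single libraries. It was 41 after rescaling to one total FPKM and also after quantile normalization, 34 without library V3 and 62 without library V4. By complex, the median log2 ratio was -0.02 for complex I (23 of 36 genes below 0), -0.00 for complex II (2 of 4), -0.06 for complex III (7 of 8), -0.05 for complex IV (9 of 13) and -0.01 for complex V (9 of 16). By the regions that the headers name, 36 members were lower in ventral MEC.

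Complex I oxidises NADH and has a core that carries out electron transfer, surrounded by accessory subunits. The 7 nuclear core subunits had a median level of 36.7 FPKM, the lowest being 8.66 FPKM for Ndufs3, and the 29 accessory subunits had a median of 34.7 FPKM. Their median log2 ratios were -0.05 and -0.01, and none passed the threshold. The most abundant gene was Ndufa4, first assigned to complex I and later found in complex IV. It had 175, 195, 187 and 169 FPKM in dorsal libraries D1, V1, D2 and V2 and 173, 162, 159.8 and 201 FPKM in ventral libraries D3, V3, D4 and V4. The regions overlapped, and the change was -0.07 ± 0.09 (SE, n = 4 per region) on the log2(FPKM + 1) scale, with an adjusted p of 0.779 by limma.

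Ndufb4, which encodes an accessory subunit of the membrane arm, gave the highest ratio of all members, at a low level. It had 1.73, 1.76, 0.614 and 1.0 FPKM in dorsal libraries D1, V1, D2 and V2, and 3.25, 2.86, 2.31 and 2.35 FPKM in ventral libraries D3, V3, D4 and V4. Every ventral library was above every dorsal one. Mean FPKM was 2.69 ± 0.45 in ventral and 1.28 ± 0.56 in dorsal MEC (SD, n = 4 each), a ratio of 2.11, and the log2(FPKM + 1) change was 0.72 (95% interval 0.33 to 1.12). The gene lies at chr16:37647170-37654453 on the minus strand. Of the 50-base words of its longest coding transcript, 37.0% also occur in transcripts of other genes, namely 3 annotated pseudogenes. Whether fragments were divided among these copies was not tested.

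On the other side, Ndufb2 gave the lowest log2 ratio of complex I, at -0.30. That of Ndufs4 was -0.12, and lower ratios were seen for other members of the complex, such as Ndufs3 (-0.17). Ndufb2, an accessory subunit of the membrane arm, had 23.3, 24.8, 22.6 and 25.8 FPKM in dorsal libraries D1, V1, D2 and V2, and 24.7, 16.7, 23.3 and 13.8 FPKM in ventral libraries D3, V3, D4 and V4. Libraries V3 and V4 were low, and the other ventral libraries lay within the dorsal range (log2 change -0.32, 95% interval -0.67 to 0.03, adjusted p = 0.362 by limma). Ndufs4, an accessory subunit needed for a stable complex, is named here because its libraries did not overlap, which was seen in the values. It had 35.2, 37.1, 36.9 and 35.6 FPKM in dorsal and 32.3, 31.6, 34.1 and 34.9 FPKM in ventral libraries, in the same order. All dorsal values were above all ventral ones, by little, and the change was -0.12 (95% interval -0.25 to 0.01, adjusted p = 0.337 by limma). Such separation of the regions was seen for 3.9% of the members and 11.1% of all genes.

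Complex II, succinate dehydrogenase, also acts in the tricarboxylic acid cycle. Sdha, its flavoprotein and most abundant gene, had 131, 136, 145 and 142 FPKM in dorsal libraries D1, V1, D2 and V2, and 137, 126, 151 and 147 FPKM in ventral libraries D3, V3, D4 and V4. The ranges overlapped, and the 95% interval of the log2 change was -0.15 to 0.17. Sdhc and Sdhd, which anchor the enzyme in the membrane, gave the highest and the lowest ratio of the complex. The log2 change of Sdhc was 0.09 (95% interval -0.07 to 0.25, adjusted p = 0.612 by limma), and that of Sdhd was -0.14 (95% interval -0.31 to 0.04, adjusted p = 0.445 by limma). For 3 of the 4 genes the interval lay within 20% either way.

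Complex III passes electrons from ubiquinol to cytochrome c. Its 3 larger nuclear subunits, Uqcrc1, Uqcrc2 and the Rieske iron-sulfur protein Uqcrfs1, had log2 ratios between -0.09 and 0.10, and its 5 small subunits had log2 ratios between -0.31 and -0.01. The lowest ratio was that of Uqcrq, with 69.0, 59.6, 75.0 and 54.3 FPKM in dorsal libraries D1, V1, D2 and V2, and 52.8, 34.9, 52.0 and 68.6 FPKM in ventral libraries D3, V3, D4 and V4. Library V3 was lowest, V4 lay within the dorsal range, and the regions overlapped (log2 change -0.33, 95% interval -0.73 to 0.07, adjusted p = 0.413 by limma). Uqcrc2, a core protein, gave the highest ratio, 1.07 (log2 change 0.10, 95% interval -0.10 to 0.30). The hinge protein Uqcrh was the most abundant, at 128 ± 12.5 FPKM dorsally and 126 ± 14.4 FPKM ventrally (SD, n = 4 each).

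Complex IV, cytochrome c oxidase, transfers electrons to oxygen. Cox8a, the small subunit VIII and the most abundant gene of the complex, had 285, 279, 334 and 339.6 FPKM in dorsal libraries D1, V1, D2 and V2, and 271, 204, 320.2 and 365 FPKM in ventral libraries D3, V3, D4 and V4. The lowest and the highest value were both ventral, in V3 and V4. The lowest ratio was that of Cox5a, at 99.2 ± 4.19 FPKM dorsally and 87.3 ± 11.8 FPKM ventrally (SD, n = 4 each), with a log2 change of -0.19 (95% interval -0.40 to 0.02, adjusted p = 0.365 by limma). The highest ratio was that of Cox6b2, described with the isoforms. Cox7a2l had a log2 change of -0.05 and is named outside the naming rule.

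Several complex IV subunits are encoded by more than one gene, one copy being used in most tissues and another in muscle, lung or testis. In the MEC the first kind was the abundant one in each of the 5 sets. Cox4i1 was at 200.3 ± 14.3 FPKM dorsally and 195 ± 30.9 FPKM ventrally (SD, n = 4 each), 322 times the mean level of the lung isoform Cox4i2 (0.614 FPKM). Cox7a2 was at 101 times the mean level of the muscle and heart isoform Cox7a1 (0.650 FPKM), and Cox8a was at 299.8 FPKM where its muscle isoform Cox8b was listed at 0 in 4 libraries and did not exceed 0.522 FPKM. Cox4i2, Cox7a1 and Cox8b were not tested, nor were Cox7b2 (mean 0.488 FPKM) and Cox8c (0 in all libraries), both known from testis.

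Cox6a2 and Cox6b2 were the second isoforms with enough signal to test. Cox6a2, the heart and muscle isoform of subunit VIa, had 4.16, 4.12, 5.10 and 6.75 FPKM in dorsal libraries D1, V1, D2 and V2, and 5.11, 5.34, 6.48 and 6.03 FPKM in ventral libraries D3, V3, D4 and V4. The regions overlapped, with a log2 change of 0.18 (95% interval -0.12 to 0.48, adjusted p = 0.602 by limma). In the brain this isoform is known from parvalbumin interneurons, whose marker Pvalb had 12.8 to 17.9 FPKM in dorsal and 5.29 to 7.57 FPKM in ventral libraries and was D>V (log2 change -1.13 ± 0.12, SE, adjusted p = 0.000942 by limma). The list of 8 genes of these interneurons was divided. Pvalb and Syt2 were D>V and Tac1 was V>D, the median log2 ratio was -0.00, and the summed level was 209.9 to 214 FPKM in dorsal and 198 to 205 FPKM in ventral libraries. The level of Cox6a1, the isoform of most tissues, was 37.0 times that of Cox6a2, and its log2 change was -0.16 (95% interval -0.35 to 0.04, adjusted p = 0.425 by limma).

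Cox6b2, the testis isoform of subunit VIb, had 1.15, 1.44, 1.28 and 1.42 FPKM in dorsal libraries D1, V1, D2 and V2, and 1.46, 1.57, 2.15 and 2.38 FPKM in ventral libraries D3, V3, D4 and V4. All ventral values were above all dorsal ones, D3 by very little. The log2 change was 0.31 (95% interval 0.03 to 0.58, adjusted p = 0.262 by limma). Its partner Cox6b1 had 114, 102, 123 and 102 FPKM in dorsal and 109.6, 65.4, 113 and 118 FPKM in ventral libraries, in the same order. Library V3 was far below all others, and the log2 change moved from -0.15 with it to 0.04 without it, neither past the threshold (adjusted p = 0.736 and 0.840 by limma). The ratio of Cox6b1 to Cox6b2 was 83.6 from the dorsal and 53.8 from the ventral means.

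**Figure D3:**
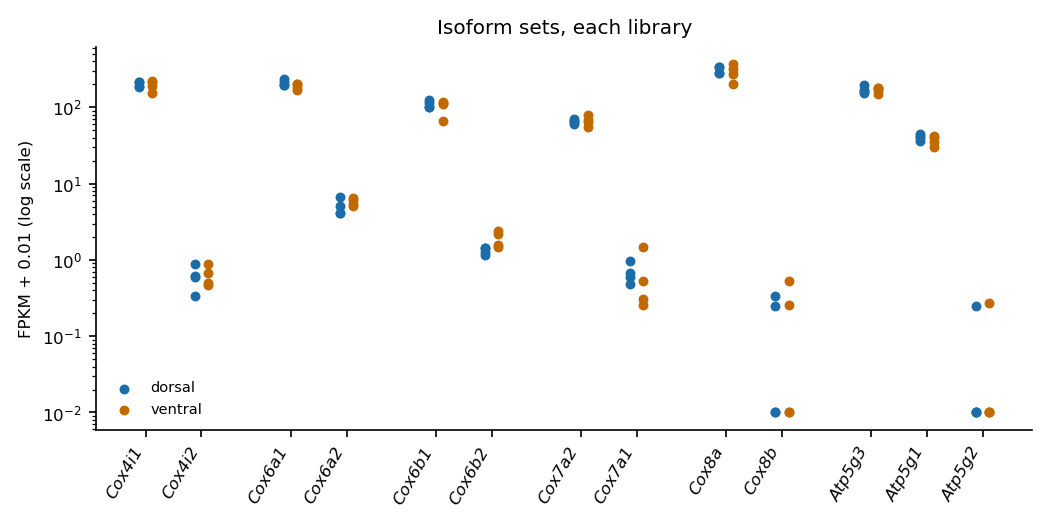
FPKM (log axis, with 0.01 added so that values of 0 can be drawn) of the isoform sets of complex IV and of the c-ring genes of complex V in each dorsal and each ventral library. Within each set the abundant isoform is the same in all 8 libraries, and points at the bottom are values of 0.

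Complex V makes ATP with an F1 head, driven by a ring of c subunits in the membrane. The 5 genes of the F1 head and central stalk were close to equal between regions, with log2 ratios from -0.07 to 0.02, and the 4 genes of the peripheral stalk lay between -0.13 and 0.17. The highest ratio was that of the peripheral stalk gene Atp5h, at 57.7 ± 6.34 FPKM dorsally and 64.9 ± 5.01 FPKM ventrally (SD, n = 4 each), with a log2 change of 0.17 (95% interval -0.03 to 0.37, adjusted p = 0.405 by limma). For Atp5b the log2 change was 0.02 (95% interval -0.28 to 0.31). Of the genes that encode the same mature c subunit, Atp5g3 was at 171 ± 19.96 FPKM dorsally and 170.1 ± 14.7 FPKM ventrally (SD, n = 4 each). Atp5g1 gave the lowest ratio of the complex, with 40.9 ± 3.55 and 36.8 ± 5.42 FPKM (log2 change -0.16, 95% interval -0.39 to 0.08, adjusted p = 0.546 by limma). Atp5g2 was listed at 0 in 6 libraries and Atp5l2, annotated as a pseudogene in GENCODE M21, at 0 in 7, and neither was tested.

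Some members share sequence with other genes. Atp5l, a membrane subunit of ATP synthase, had between 1.56 and 2.11 FPKM, and 84.8% of its 50-base words also occur in transcripts of 14 other genes, 12 of them pseudogenes. The gene lies at chr9:44912557-44920742. Of the 77 members, 44 shared at least 1 such word with another gene, 25 shared 10% or more of their words and 2 shared 50% or more. Exons of 27 members overlapped those of another gene in GENCODE M21, mostly on the other strand, and the counting is not stated to have used strand. The members also had short transcripts, with a median of 908 bases against 3328 bases for 11844 protein-coding genes tested. Their part in the levels was not tested.

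Single libraries stood apart in the level of the OXPHOS genes. Ventral library V3 held the lowest of the 8 values for 37 of 77 members (48.1%), against 13.8% of all genes, and the highest for none, and ventral library V4 held the highest value for 28 members (36.4%), against 13.1% of all genes. Relative to the mean of a gene over all libraries, the median member stood at 0.886 in V3 and 1.07 in V4, whereas the median of all genes lay between 0.985 and 1.0 in the 8 libraries. In V3 all 5 complexes were low, the median being 0.876 for complex I, 0.907 for complex II, 0.897 for complex III, 0.843 for complex IV and 0.939 for complex V. The summed FPKM of the members was 7144 to 8011 in dorsal and 6789 to 8290 in ventral libraries, so that the ventral range contained the dorsal one.

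**Figure D4:**
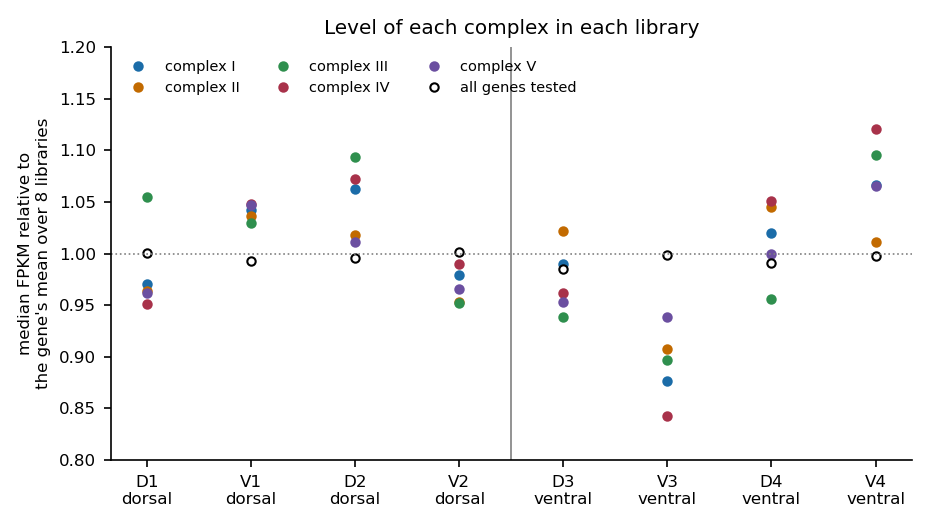
Median over the genes of each complex of FPKM relative to the gene's mean over 8 libraries, for each library, with open circles for all 13674 genes tested. All 5 complexes lie below 0.95 in ventral library V3 and above 1.0 in ventral library V4, whereas the open circles lie between 0.985 and 1.0.

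Other housekeeping gene families were also below their mean in V3 and above it in V4. In V3 the median relative level was 0.923 for 72 cytosolic ribosomal protein genes, 0.947 for 75 mitochondrial ribosomal protein genes and 0.948 for 35 proteasome genes, and in V4 it was 1.10, 1.08 and 1.06. For the cytosolic ribosomal protein genes the lowest library was dorsal library V2, at 0.906. None of these families had a gene past the threshold, which 3.60% of all genes tested passed. The part of library quality in the values of V3 and V4 was not tested. Without V3 the median log2 ratio of the members was 0.02, and without V4 it was -0.08, while 0 members passed the threshold in either case. The summed FPKM of complex IV was 1371 ± 53.5 in dorsal and 1296 ± 193 in ventral MEC (SD, n = 4 each). For complex I it was 1608 ± 75.1 and 1575 ± 114, and for complex II 231 ± 7.99 and 229.9 ± 14.9. For complex III it was 492 ± 25.6 and 477 ± 58.0, and for complex V 3967 ± 353 and 3987 ± 439.

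**Figure D5:**
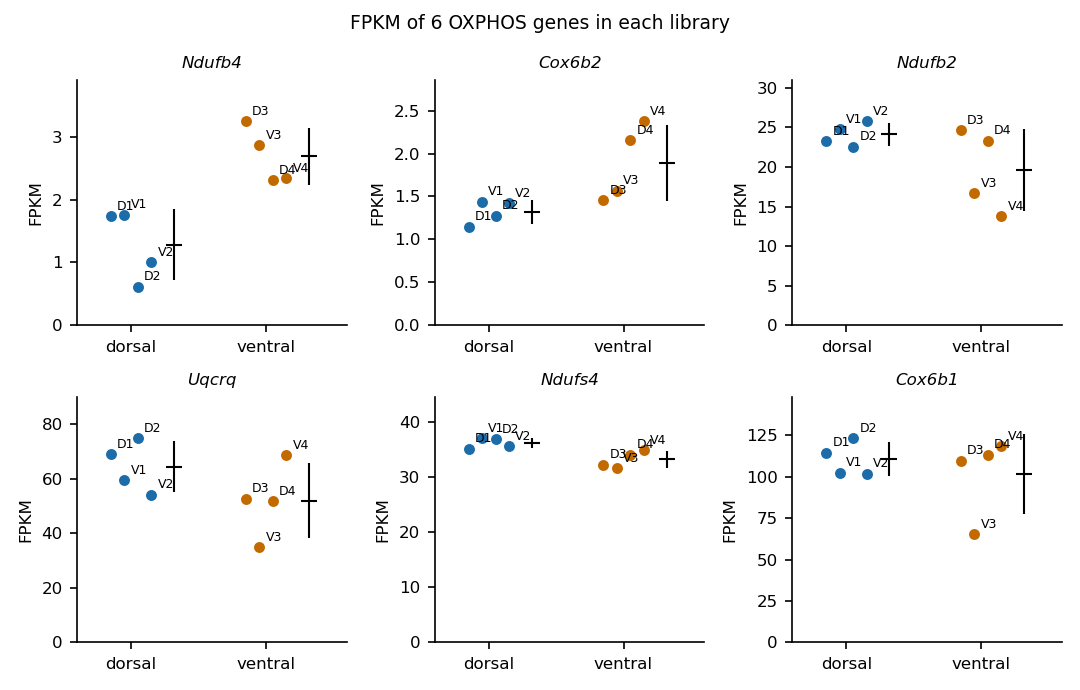
FPKM of 6 OXPHOS genes in each library (points, named by column header) with the mean and SD of each region (black). Ndufb4, Cox6b2 and Ndufs4 do not overlap between regions, whereas Ndufb2, Uqcrq and Cox6b1 overlap, with V3 or V4 as the lowest ventral library.

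Sequence upstream of the genes was looked at because nuclear OXPHOS genes are known targets of the factors NRF1, GABP (an ETS factor) and YY1. RefSeq promoters of 300 bases (250 before to 50 after the start, GRCm38.p6) were matched to 65 of the 77 tested members, which have 71 such promoters. Both strands were searched. The NRF1 consensus motif was in 23.9% of the members' promoters and 4.6% of all 32851 promoters, the ETS motif CCGGAAG in 22.5% and 8.86%, and the YY1 motif AAGATGGC in 16.9% and 2.75%. The Sp1 motif GGGCGG was in 38% and 35.7%, the CRE motif TGACGTCA in 5.63% and 1.79%, and TATAAA in 8.45% and 13.6%. Base composition was not matched. In all, 37 of the 65 members held an NRF1, ETS or YY1 motif. The median log2 ratio of expression was -0.01 for the 16 members with an NRF1 motif and -0.04 for the other matched members.

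Promoters of Ndufb4 and of the Cox6b isoform pair are shown, as the gene nearest to the threshold and as a set in which the abundant and the scarce gene differ in motifs. Other isoform sets were divided. Cox8a holds ETS motifs, and Cox8b holds no NRF1, ETS or YY1 motif. Atp5g2 (mean 0.063 FPKM) holds an NRF1 motif, as does the abundant Atp5g3 (171 FPKM). Neither Cox7a2 nor Cox7a1 holds any of these motifs. Whether motifs bear on the level was not tested. Capitals mark NRF1 and ETS motifs. Those of Ndufb4 (chr16:37654319-37654618, minus strand) are 3 NRF1 motifs that begin 191, 79 and 22 bases before the start. That of Cox6b1 (chr7:30626065-30626364, minus strand) is an ETS motif that begins 28 bases before the start, and Cox6b2 (chr7:4753045-4753344, minus strand) holds neither.
Ndufb4: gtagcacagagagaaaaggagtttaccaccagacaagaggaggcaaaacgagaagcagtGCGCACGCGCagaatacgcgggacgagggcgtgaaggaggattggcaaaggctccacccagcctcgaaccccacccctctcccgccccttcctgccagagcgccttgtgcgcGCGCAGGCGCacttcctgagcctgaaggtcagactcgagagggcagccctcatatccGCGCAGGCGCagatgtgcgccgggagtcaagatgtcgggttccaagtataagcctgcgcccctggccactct
Cox6b1: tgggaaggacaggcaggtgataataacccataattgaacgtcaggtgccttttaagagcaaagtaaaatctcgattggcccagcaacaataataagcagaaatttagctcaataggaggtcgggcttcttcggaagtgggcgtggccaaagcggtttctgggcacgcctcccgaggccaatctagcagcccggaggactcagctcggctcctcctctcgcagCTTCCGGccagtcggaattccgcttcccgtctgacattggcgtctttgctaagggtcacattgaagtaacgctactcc
Cox6b2: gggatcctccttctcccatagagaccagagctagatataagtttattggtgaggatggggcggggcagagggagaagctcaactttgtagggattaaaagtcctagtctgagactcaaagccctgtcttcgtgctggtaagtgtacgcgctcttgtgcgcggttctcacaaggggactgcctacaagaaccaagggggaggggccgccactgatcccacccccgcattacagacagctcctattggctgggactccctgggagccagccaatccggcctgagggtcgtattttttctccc

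Regulators of these genes did not pass the threshold. Nrf1 itself had 2.74 to 3.20 FPKM in dorsal and 2.27 to 3.35 FPKM in ventral libraries. Ppargc1a, the coactivator PGC-1alpha that promotes mitochondrial biogenesis, had 57.7, 67.7, 83.6 and 103 FPKM in dorsal libraries D1, V1, D2 and V2, and 65.3, 70.7, 104 and 81.8 FPKM in ventral libraries D3, V3, D4 and V4. Regions overlapped, and the log2 change was 0.06 ± 0.18 (SE, n = 4 per region, adjusted p = 0.926 by limma). Of 13 regulators of mitochondrial biogenesis tested, 0 were D>V and 0 were V>D, with log2 ratios from -0.22 (Tfb1m) to 0.24 (Polrmt). Since 3.60% of all genes tested passed, a list of 13 can hold none at the common share.

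No gene of the neighbouring pathways passed the threshold either. The counts were 0 of 6 OXPHOS subunits and carriers with other symbols, 0 of 38 assembly factors, 0 of 18 genes of the tricarboxylic acid cycle, 0 of 16 of glycolysis and 0 of 17 mitochondrial carriers and outer membrane proteins. Among all genes tested 3.60% passed, a share at which lists this short can hold none. Cs, citrate synthase of the tricarboxylic acid cycle, had a log2 change of -0.02 ± 0.07, and Slc25a3, the phosphate carrier that supplies ATP synthase, -0.00 ± 0.06 (SE, n = 4 per region). The widest differences in these 5 lists were those of Sco2, a copper chaperone for complex IV (log2 ratio -0.52, adjusted p = 0.233 by limma), and Suclg2, a subunit of succinyl-CoA ligase (log2 ratio 0.43, adjusted p = 0.172 by limma).

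The mitochondrial genes for subunits of the same complexes varied between libraries on another pattern. Of 13 such genes, 9 were tested and 0 passed the threshold, too few to set against the 3.60% of all genes tested that passed. mt-Nd1, a core subunit of complex I, had 3562, 3461, 3669 and 7007 FPKM in dorsal libraries D1, V1, D2 and V2, and 3182, 3336, 4146 and 6521 FPKM in ventral libraries D3, V3, D4 and V4. V2 and V4, 1 of each region, were the high ones. The summed level of the 13 genes was 39774 FPKM in V2 and 36404 FPKM in V4, and lay between 16919 and 22916 FPKM in the other 6 libraries. The sum leaves out mt-Co1, which the authors' software listed at 0 for excess of data. V3, lowest for the nuclear genes, was not low here, at 18254 FPKM.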

How the data were processed

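RNA was sequenced as paired-end fragments after amplification of cDNA, with RNA integrity numbers of 7.1 to 8.5. The authors aligned the fragments with TopHat2 2.0.8 and obtained the deposited FPKM per gene and library, and the mean FPKM per region, with Cuffdiff 2, on Ensembl release 73. Table columns holding the authors' own fold changes and tests were not used, nor were 4 columns of per-sample values, whose rows could not be matched to single samples, so no count-based test was run. Library depth is not given here. Genes with the status OK and a mean of at least 1 FPKM were tested with limma 3.58.1 (R 4.3.3), with its trend option, after taking log2(FPKM + 1), across 13674 genes and without covariates. Fold changes on this scale understate those of genes with low FPKM. Thresholds, intervals (95%) and lists are as in the text. The fit was tested on simulated data in which the planted changes were far larger than 20%. The simulation therefore does not show how well differences near 20% are found. Named genes are members past a threshold, the extremes and the most abundant gene of each complex, isoform sets, members not tested, and the first genes and extremes of other lists. Members and lists were chosen with earlier results of these data known, and the groups within complexes after seeing the data. Positions and overlaps are from GENCODE M21 (GRCm38).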

Additional observations from a re-analysis of the deposited data

Results flagged for a closer look

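Each named gene and summed complex was checked for a library far from the other 3 of its region, 56 groups of 4 in all, of which chance alone would give about 1 in 20. This picked out 1 value, that of Cox6b1 in ventral library V3. It was 65.4 FPKM where the other ventral libraries had 109.6 to 118 FPKM. The gap came to 0.837 of the range of the region. The part of library quality in it was not tested.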

How the results depend on the processing

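The 18 alternatives changed the constant added before the logarithm, the FPKM filter, the scaling, the variance model, the regions, the grouping of genes and the libraries used. Members called, by both rules, were 0 under each except quantile normalization, which gave 1, Ndufb4 as V>D (log2 change 0.74, limma adjusted p = 0.0462). Leaving out 1 library in turn gave 0 members called, and the median log2 ratio of the members ranged from -0.08 to 0.02. That of complex V ranged from -0.079 (without V4) to 0.012, and the change of Cox6b1 from -0.237 to 0.045. Over the same omissions the adjusted p of Ndufb4 ranged from 0.0512 to 0.159. Genes called among all tested numbered 492 with every library and 253 to 532 with 1 left out, of which 253 without D3, 260 without V1 and 326 without V2 were under the main count by more than 1.5 times.

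With regions as headers name them, 1 of all 13674 genes and 0 members were called, and with only the 4 libraries on whose region header and assignment concur, 0 genes and 0 members. Values of opposite sign, none past the threshold, were 0.18 for Atp5g3, 0.060 for Ndufa4, 0.0066 for Ndufs4, -0.12 for Sdhc and 0.0054 for Sdhd by the headers' regions, 0.18 for Atp5g3 and -0.032 for Sdhc with those 4 libraries, and 0.045 for Cox6b1 without V3. In total 31 of 394 values of 22 named members changed sign, 8 of them by over 1 standard error. No paired analysis was possible because, although both regions came from the same 4 groups of mice, neither labels nor headers say which group a library is from. Depth, which is not given here, limits the members with low FPKM most.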
